A study of Mus musculus with 20 samples.

Results

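Liver of staggerer mice was compared with liver of wild-type mice, both kept on a high-fat diet. All arrays labelled as liver of either genotype were used, which is 10 of the 20 arrays of the series, with 5 arrays from 5 mice per genotype. Staggerer mice (RORasg/sg, here sg/sg) have both copies of Rora disabled by a natural deletion, and wild-type (WT) mice carry no such deletion. Both groups were C57BL/6 males, 5 months old, on a 35% fat diet during 6 weeks. The other 10 arrays hold white adipose tissue of the same genotypes, strain, sex, age and diet. The deletion is present in every tissue, so that effects in liver and effects that reach the liver through other tissues cannot be told apart. No mice on another diet were measured here, and the labels do not give the time of day or the state of feeding at sampling.

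RORα, the product of Rora, is a nuclear receptor that binds DNA as a monomer, at a core motif preceded by a stretch rich in A and T, and activates nearby genes. REV-ERBα and REV-ERBβ, the products of Nr1d1 and Nr1d2, bind the same elements and repress, which ties both receptor families to the circadian clock. In liver RORα is known for a part in lipid metabolism, and sg/sg mice are known for ataxia, a lean body and low plasma lipids.

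Levels below are log2 of the deposited processed intensity after division by the 75th percentile of the same array, and a difference is sg/sg minus WT on that log2 scale. A gene was called, and is said to have risen or fallen, when its adjusted p in limma was under 0.05. Of 17335 genes tested, 2825 were called (16.3%), with 1601 higher (9.24%) and 1224 lower (7.06%) in sg/sg liver. Under scaling by the median of each array, the split turned to 675 higher and 1639 lower. At least 2-fold differences were called for 139 genes higher (0.802%) and 197 lower (1.14%). Leaving out WT replicate 4 gave 934 called genes, WT replicate 3 gave 1186, WT replicate 2 gave 1711, sg/sg replicate 3 gave 1720 and sg/sg replicate 5 gave 1760.

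Slides divided the genotypes unevenly. Slide 1 held WT replicates 1 to 4, slide 2 held WT replicate 5 with sg/sg replicates 1 to 3, and slide 3 held sg/sg replicates 4 and 5. Slide 2 alone held both genotypes, with 1 WT array, so the difference within slide 2 (the mean of its 3 sg/sg arrays minus its WT array) follows each called difference, as "slide 2" in brackets or in words. A fixed block on slide left 2 genes called in limma, against 1451 at an unadjusted p under 0.05. As a random block, slide left 1745 called genes. The 75th percentile ran from 817 to 1090 intensity units on WT arrays and from 648 to 901 on sg/sg arrays. The summed level of 20 hepatocyte markers, such as albumin, was 4518 to 6160 in WT and 6309 to 6904 in sg/sg liver. These ranges did not overlap, but the median difference of the markers was 0.30 over all arrays and 0.05 within slide 2. In whole liver, fewer cells of a type and less RNA per cell cannot be told apart.

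Rora was lower in every sg/sg liver. Its brightest probe (chr9:69410920-69410979, build mm7) was at 2.07, 1.90, 2.22, 1.99 and 2.05 in WT and at -0.91, -1.05, -0.65, -0.51 and -1.04 in sg/sg mice, in the order of replicates 1 to 5. The genotypes did not overlap, and both varied little. The difference was -2.88 (SE 0.12, adjusted p = 2.7e-06), and -2.92 within slide 2. The probe at chr9:69411020-69411079 differed by -2.86 (SE 0.13). The dim probe at chr9:69417414-69417473 had no sg/sg array well above background, which puts it at least 2.14-fold lower. A fold given as "at least" takes for each sg/sg array the dimmest signal that counted as detected, or what the probe itself gave if that was more. Where these probes lie relative to the deletion is not given in the sources used here, and a probe outside the deleted stretch does not check the genotype. Rora was one of the 2 genes called with slide as a fixed block (adjusted p = 0.0176). The other was Adgrb2, named after its values were seen, which rested on WT replicate 5 at -2.89 against -5.72 to -5.18 in the other WT mice.

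Of 4 tested ROR and REV-ERB receptors 2 were called (50%, against 16.3% of all genes), Rora and Nr1d2, which fell by 0.52 (SE 0.14, slide 2 -0.67). The count of 2 called members became 1 on leaving out WT replicate 1, WT replicate 2, WT replicate 3, WT replicate 4, WT replicate 5, sg/sg replicate 3, sg/sg replicate 4 or sg/sg replicate 5, and 1 with slide as a random block. Nr1d1 was at -0.86 (SE 0.27, adjusted p = 0.0547), which did not pass the test. Within 5 Mb of the Rora probes 17 of 89 genes were called (19.1%), 9 higher and 8 lower, against 15.4% over chromosome 9, and within 20 Mb the share was 12.6%. Parp16 and Rasl12, which lie in the narrower window and were named after their values were seen, rose by 1.26 (SE 0.34, slide 2 1.21) and 0.89 (SE 0.18, slide 2 0.94).

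Decreases kept more of their size within slide 2 than increases did. All 197 genes called at least 2-fold lower kept their sign there, with a median of 92.5% of the difference over all arrays, and 144 of them were at least 2-fold lower within the slide. Of the 139 genes called at least 2-fold higher, 120 kept their sign, the median was 42.9% and 47 were at least 2-fold higher. These shares are a description, since the arrays of slide 2 also helped to choose the genes. The median level of the 139 genes, set against the WT mean, was -0.34 to -0.03 in WT replicates 1 to 4, 0.53 in WT replicate 5 and 1.0 to 1.58 in sg/sg mice. For the 197 genes WT replicate 5 was at -0.19, inside the range of -0.29 to 0.39 of the other WT mice, and sg/sg arrays were at -1.69 to -1.24. Whether WT replicate 5 was high for the increases through the animal or through the slide cannot be told apart. Of the 139 increases, the 102 genes well above background on all 10 arrays kept a median of 25.4% within slide 2, and the other 37 kept 73.3%.

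**Figure D1:**
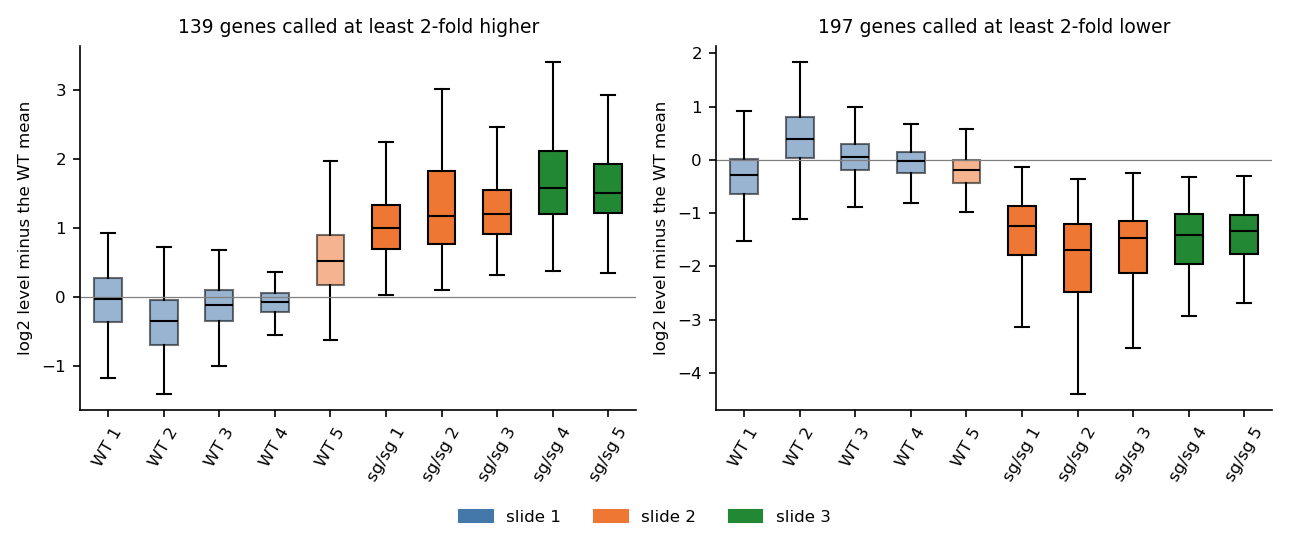
Log2 level minus the WT mean on each of the 10 liver arrays, for the 139 genes called at least 2-fold higher and the 197 called at least 2-fold lower in sg/sg liver. Boxes span the quartiles with the median as a line, whiskers reach 1.5 times that span, outliers are not drawn and colours mark slides; WT replicate 5 has a median of 0.53 for the higher genes and -0.19 for the lower ones.

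Sulfate conjugation, lipid droplets, glycogen and signalling were among the roles of the genes with large differences both over all arrays and within slide 2. The 12 increases and 12 decreases described first are the named genes without overlap whose smaller difference, over all arrays or within slide 2, was largest, so genes with larger differences over all arrays can lie outside them. Their genotypes did not overlap, which the choice itself required and which held for 12.8% of all genes tested (7.01% with sg/sg higher and 5.8% with sg/sg lower).

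**Figure D2:**
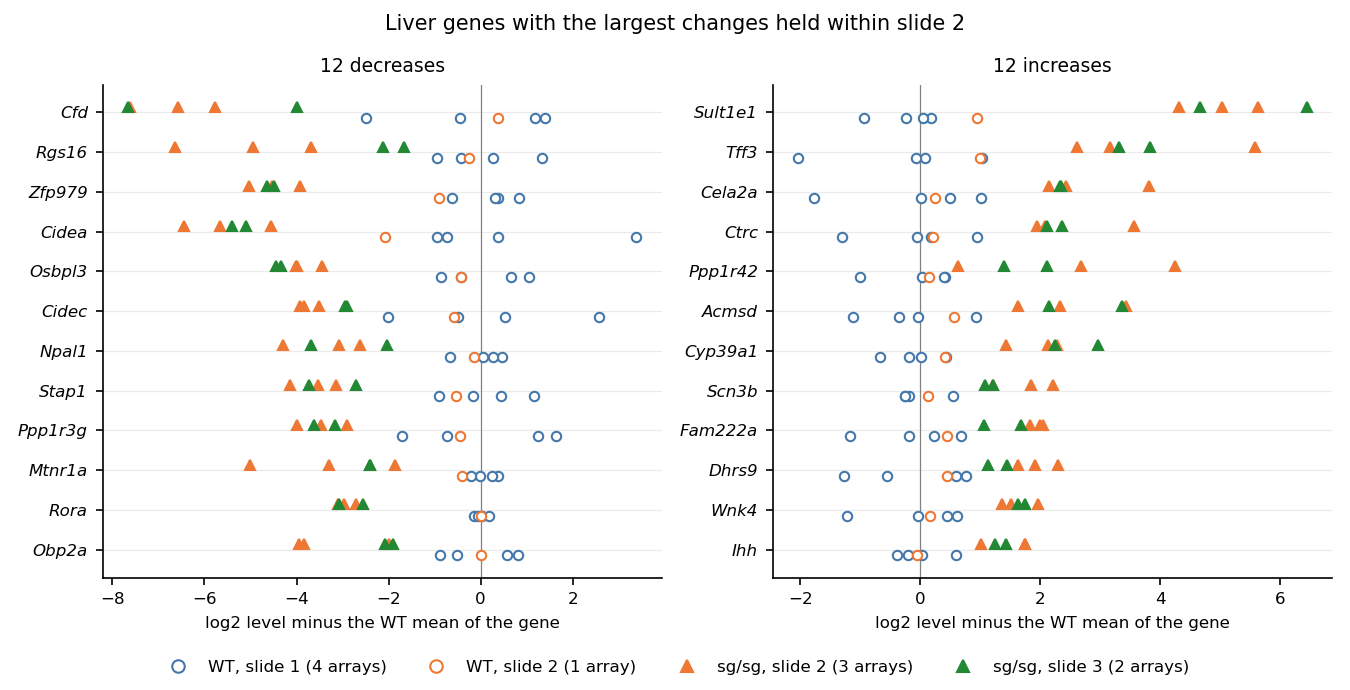
Log2 level minus the WT mean of the gene for 12 increases and 12 decreases, one point per array, with WT as open circles, sg/sg as triangles and colours for slides. In all 24 genes the triangles lie apart from the circles, from 5.22 for Sult1e1 to -6.32 for Cfd in mean difference.

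Sult1e1, the sulfotransferase that inactivates oestrogens, had the highest increase of the 12. Its probe (chr5:87512926-87512985, mm7) was at -1.88, -2.0, -2.30, -2.98 and -1.11 in WT and at 2.97, 3.57, 2.26, 4.39 and 2.62 in sg/sg mice. The highest WT liver, replicate 5, was far below the lowest sg/sg liver, replicate 3. The difference was 5.22 (SE 0.43, adjusted p = 0.000852), or 37.2-fold, and 4.05 within slide 2. Tff3, a trefoil peptide of mucous secretions, was at -1.25, -3.37, -0.31, -1.41 and -0.34 in WT and at 1.28, 4.24, 1.82, 2.49 and 1.97 in sg/sg mice. WT replicate 2 was lowest and sg/sg replicate 2 highest, and Tff3 rose by 3.70 (SE 0.66, slide 2 2.79). Tff3 is also on the list of bile duct markers, where Krt23 fell by 1.44 (SE 0.30, slide 2 -1.62) and Krt19 rose by 0.93 (SE 0.22, slide 2 0.14). The summed level of the 12 bile duct markers tested was 204 to 261 in WT and 185 to 231 in sg/sg liver. Krt18 and Krt8, at mean levels of 6.99 and 6.27 in WT, make up most of that sum. The mean log2 level of the 12, Tff3 among them, was 0.08 to 0.45 in WT and 0.25 to 0.58 in sg/sg liver. The part of the bile duct markers in the rise of Tff3 was not tested.

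Cyp39a1, an oxysterol hydroxylase of bile acid synthesis, was at 1.83, 1.41, 0.73, 1.23 and 1.82 in WT and at 2.83, 3.68, 3.54, 4.37 and 3.66 in sg/sg mice. Every sg/sg liver was above every WT liver, by 2.21 (SE 0.28, adjusted p = 0.00394) on average and 1.53 within slide 2. In the list of bile acid genes 2 of 25 rose and 2 fell (16%, against 16.3% of all genes called). Acmsd, which draws an intermediate of tryptophan breakdown away from NAD synthesis, was at -4.28, -6.33, -5.24, -5.56 and -4.64 in WT and at -3.58, -1.78, -2.88, -1.84 and -3.05 in sg/sg mice. It rose by 2.58 (SE 0.44, slide 2 1.89), with 3 of 5 WT arrays well above background. Of 18 genes of tryptophan and NAD metabolism 2 rose, Acmsd and Nnmt, and 3 fell, among them Kmo by 0.34 (SE 0.08, slide 2 -0.45). That is 27.8% called, against 16.3% of all genes. The count of 5 called members became 2 on leaving out WT replicate 4 and 3 on leaving out WT replicate 2 or WT replicate 3.

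The other increases had varied roles. Dhrs9, a dehydrogenase of retinol and steroids, was at -2.84, -3.0, -4.86, -4.14 and -3.14 in WT and at -1.68, -1.97, -1.30, -2.15 and -2.46 in sg/sg mice, and rose by 1.68 (SE 0.39, slide 2 1.49). Wnk4, a kinase known for control of ion transport, rose by 1.64 (SE 0.30, slide 2 1.44). The secreted hedgehog ligand Ihh rose by 1.44 (SE 0.20, slide 2 1.56). Fam222a rose by 1.72 (SE 0.33, slide 2 1.51), the sodium channel subunit Scn3b rose by 1.52 (SE 0.24, slide 2 1.63) and Ppp1r42 rose by 2.22 (SE 0.59, slide 2 2.37). For Scn3b 3 of 5 WT arrays were well above background and for Ppp1r42 2 of 5. The adjusted p of Dhrs9 was 0.0559 without WT replicate 4, and that of Ppp1r42 was 0.0516 to 0.071 without WT replicate 2, WT replicate 3, WT replicate 4, sg/sg replicate 3 or sg/sg replicate 4.

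Cela2a and Ctrc, proteases of the exocrine pancreas, were among the 12 increases. Cela2a was at -4.27, -6.53, -3.75, -4.75 and -4.52 in WT and at -2.62, -0.94, -2.33, -2.42 and -2.43 in sg/sg mice. Ctrc was at -2.90, -4.38, -2.13, -3.13 and -2.87 in WT and at -1.13, 0.49, -0.99, -0.71 and -0.96 in sg/sg mice. For both, WT replicate 2 was lowest and sg/sg replicate 2 highest, and the rises were 2.62 (SE 0.49, slide 2 2.56) and 2.42 (SE 0.41, slide 2 2.32). For Cela2a 3 of 5 WT arrays were well above background. Of 22 exocrine genes on the array 11 were tested, of which 3 rose and none fell (27.3% called, against 16.3% of all genes). Their summed level was 5.68 to 6.24 in WT and 5.84 to 8.5 in sg/sg liver. Amy2, at a mean level of 2.15 in WT and 2.18 in sg/sg liver, makes up most of that sum. The mean log2 level of the 11, Cela2a and Ctrc among them, was -3.17 to -2.63 in WT and -2.57 to -2.0 in sg/sg liver. Of the genes not tested, Pnlip, Pnliprp2, Cpa1, Cpb1, Pla2g1b and Clps were not well above background on any of the 10 arrays. Cela3b was on 1 WT and 2 sg/sg arrays, Prss2 and Reg1 each on 1 array of either genotype and Pnliprp1 on 1 WT array.

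Of 20 tested proteins of lipid droplets, in which cells store fat, 9 fell (45%), none rose and 11 were not called, with a median difference of -0.43, against 7.06% of all genes lower and a median of 0.05 over all genes. Cidea, which enlarges droplets by transfer of lipid between them, was at 1.47, 5.82, 2.82, 1.69 and 0.37 in WT and at -2.13, -4.02, -3.23, -2.65 and -2.96 in sg/sg mice. WT mice were spread widely, with replicate 2 highest, yet all of them were above the sg/sg mice. The difference was -5.43 (SE 0.86, adjusted p = 0.00755), and -3.49 within slide 2. Cidec, a relative of Cidea that promotes large droplets, was at 0.03, 4.63, 2.57, 1.57 and 1.47 in WT and at -1.45, -1.77, -1.87, -0.88 and -0.85 in sg/sg mice. It fell by 3.42 (SE 0.69, slide 2 -3.17). The droplet coat protein Plin2 was at 7.41, 7.99, 7.67, 7.64 and 7.61 in WT and at 7.15, 6.31, 6.88, 6.83 and 6.75 in sg/sg mice. Here the WT mice lay close together, and Plin2 fell by 0.88 (SE 0.16, slide 2 -0.83). Plin4, another coat protein, fell by 2.66 (SE 0.43, slide 2 -2.15), and Fitm1 and Fitm2, which help droplets to form, fell by 1.15 (SE 0.31, slide 2 -1.06) and 0.63 (SE 0.16, slide 2 -0.63). Hsd17b13 fell by 0.68 (slide 2 -0.61), the monoacylglycerol lipase Mgll by 0.63 (slide 2 -0.63) and the lysosomal lipase Lipa by 0.44 (slide 2 -0.38). The count of 9 called members became 5 on leaving out WT replicate 2, WT replicate 3 or WT replicate 4.

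Plin2 and the peroxisomal genes Ehhadh and Pex11a, which also fell, held a motif like the core of a ROR element in the 250 bases before their RefSeq start (GRCm38.p6). These 3 promoters are printed, chosen after the values were seen, to show where the motif lies in lipid genes that fell. The motifs searched were TAGGTCA and TGGGTCA on both strands, and the search did not ask for a stretch rich in A and T before them. Capitals mark the motif, which lies on the strand opposite to the gene in all 3 and so reads TGACCTA or TGACCCA. The stretches are chr4:86670060-86670309 for Plin2, chr16:21787835-21788084 for Ehhadh and chr7:79743132-79743381 for Pex11a, all of the minus strand, and the first motif base is at -218, -165 and -127 from the start.
Plin2: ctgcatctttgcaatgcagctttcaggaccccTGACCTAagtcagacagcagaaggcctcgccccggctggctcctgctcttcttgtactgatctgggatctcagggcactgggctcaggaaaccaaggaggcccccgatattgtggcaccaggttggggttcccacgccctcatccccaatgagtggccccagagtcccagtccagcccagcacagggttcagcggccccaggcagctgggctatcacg
Ehhadh: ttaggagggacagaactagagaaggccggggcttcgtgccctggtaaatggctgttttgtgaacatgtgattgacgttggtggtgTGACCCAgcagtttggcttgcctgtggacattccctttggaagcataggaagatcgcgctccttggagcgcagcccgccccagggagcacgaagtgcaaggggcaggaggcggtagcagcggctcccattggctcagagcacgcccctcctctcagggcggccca
Pex11a: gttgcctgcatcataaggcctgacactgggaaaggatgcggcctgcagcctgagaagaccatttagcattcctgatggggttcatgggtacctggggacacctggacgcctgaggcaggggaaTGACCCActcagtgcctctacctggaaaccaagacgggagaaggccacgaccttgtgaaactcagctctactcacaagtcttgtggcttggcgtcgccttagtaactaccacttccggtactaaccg
A motif stood in 6.15% of all 27025 promoters of the table and in 5.65% of 10533 promoters of genes tested. It stood in 5.18% of 792 promoters of genes called lower and in 4.81% of 1019 promoters of genes called higher. Genes that rose held one too, such as Slc3a2 and Parp16. A promoter was in the table for 7 of these 12 increases, of which 1, Dhrs9, held a motif, and for 9 of these 12 decreases, of which 0 did. A match describes the letters of this window and is not a bound site.

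Genes that assemble glycerolipids were lower in 6 of 20 cases (30%, against 7.06% of all genes lower) and higher in none (median -0.26). Mogat1, which makes diacylglycerol from monoacylglycerol, was at -0.58, 2.29, -0.13, 0.16 and -0.66 in WT and at -2.58, -3.48, -2.53, -2.63 and -1.65 in sg/sg mice. WT replicate 2 stood well above the other WT mice, and Mogat1 fell by 2.79 (SE 0.54, slide 2 -2.21). Lpin2, a phosphatidate phosphatase, was at 5.76, 5.77, 5.69, 5.04 and 5.35 in WT and at 4.28, 4.21, 4.29, 4.56 and 4.08 in sg/sg mice. All WT mice were above all sg/sg mice, and Lpin2 fell by 1.24 (SE 0.15, slide 2 -1.09). Its relative Lpin1 fell by 1.39 (SE 0.41, slide 2 -0.98) and the acyltransferase Gpat3 fell by 1.36 (SE 0.26, slide 2 -1.54). The count of 6 called members became 3 on leaving out WT replicate 4. In fatty acid synthesis 2 of 22 genes rose and 2 fell (18.2%, against 16.3% of all genes called), with a list median of -0.54. The count of 4 called members became 0 on leaving out WT replicate 3, 1 on leaving out WT replicate 4 and 2 on leaving out sg/sg replicate 2, sg/sg replicate 3 or sg/sg replicate 5. The lipogenic protein Thrsp fell by 2.35 (SE 0.56, slide 2 -3.02) and the elongase Elovl5 fell by 1.05 (SE 0.25, slide 2 -1.09), and the desaturase Scd2 rose by 0.34 (SE 0.09, slide 2 0.47).

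**Figure D3:**
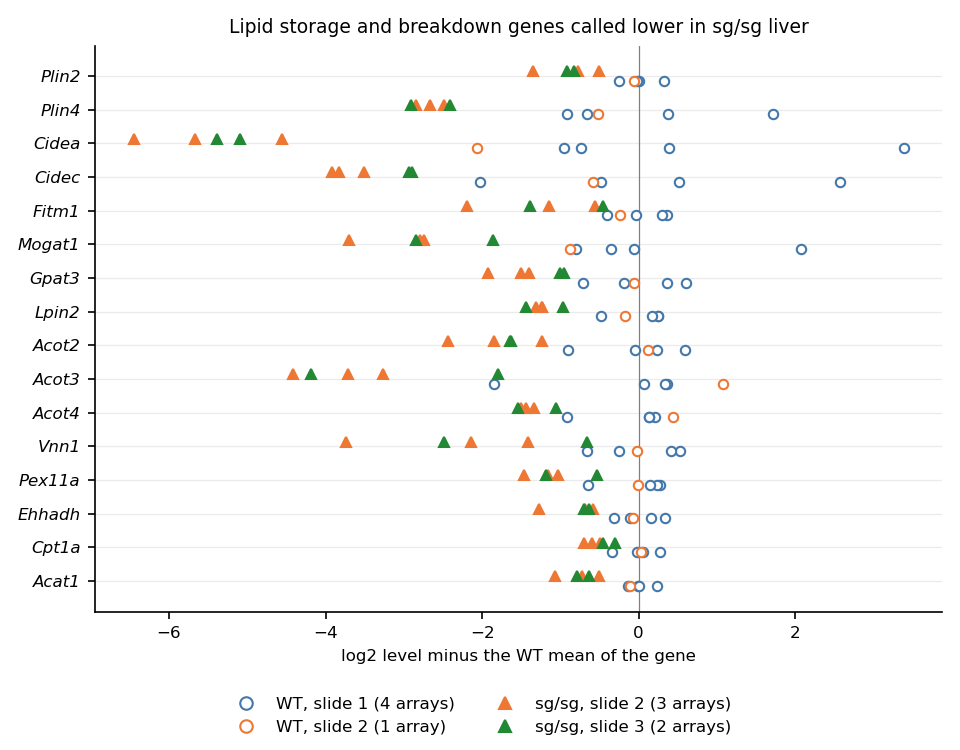
Log2 level minus the WT mean for 16 genes of lipid storage and breakdown called lower in sg/sg liver, one point per array, with WT as open circles, sg/sg as triangles and colours for slides. Cidea has the widest spread of the WT arrays, with WT replicate 2 highest. The lowest array is sg/sg replicate 2 for several genes, among them Plin2, Vnn1, Ehhadh, Cidea, Mogat1 and Acat1.

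In mitochondrial fatty acid oxidation and ketone synthesis 9 of 24 genes fell, none rose and 15 were not called, against 7.06% of all genes lower (median -0.34). Acat1, the acetoacetyl-CoA thiolase, was at 4.65, 4.77, 4.79, 5.02 and 4.67 in WT and at 4.27, 3.71, 4.05, 3.99 and 4.15 in sg/sg mice. The genotypes did not overlap, and Acat1 fell by 0.74 (SE 0.12, slide 2 -0.66). Cpt1a, which admits long-chain fatty acids to mitochondria, was at 4.92, 5.25, 5.54, 5.32 and 5.29 in WT and at 4.76, 4.67, 4.57, 4.81 and 4.96 in sg/sg mice. WT replicate 1 and sg/sg replicate 5 overlapped, and Cpt1a fell by 0.51 (SE 0.12, slide 2 -0.62). Bdh1, which forms the ketone body hydroxybutyrate, fell by 0.57 (SE 0.15, slide 2 -0.56), and the oxidation enzymes Echs1, Acadm and Hadh fell by 0.49 (slide 2 -0.34), 0.41 (slide 2 -0.41) and 0.41 (slide 2 -0.66). The count of 9 called members became 2 on leaving out WT replicate 4, 3 on leaving out WT replicate 3 and 5 on leaving out WT replicate 2, sg/sg replicate 3 or sg/sg replicate 4.

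Peroxisomal genes and targets of PPARα, the receptor that switches on fat burning in fasting, included 10 decreases and no increase among 36 tested (median -0.33). That is 27.8% lower, against 7.06% of all genes. Ppara itself was at 4.68, 4.32, 4.96, 4.77 and 4.80 in WT and at 4.05, 4.23, 4.07, 3.80 and 4.13 in sg/sg mice. The lowest WT mouse was just above the highest sg/sg mouse, replicate 2 of either genotype, and Ppara fell by 0.65 (SE 0.12, slide 2 -0.69). Vnn1, a pantetheinase known as a PPARα target, was at 3.06, 4.24, 3.47, 4.13 and 3.70 in WT and at 2.31, -0.02, 1.58, 1.23 and 3.06 in sg/sg mice. The lowest WT and highest sg/sg mouse nearly met, while sg/sg replicate 2 was far below the rest, and Vnn1 fell by 2.09 (SE 0.49, slide 2 -2.41). Pex11a, which divides peroxisomes, fell by 1.08 (SE 0.21, slide 2 -1.22), the thiolase Acaa1b fell by 0.87 (SE 0.22, slide 2 -1.15) and the bifunctional oxidation enzyme Ehhadh fell by 0.78 (SE 0.16, slide 2 -0.77). The count of 10 called members became 3 on leaving out WT replicate 4 and 5 on leaving out WT replicate 3.

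Acyl-CoA thioesterases, which release fatty acids from their CoA esters, fell in 4 of 10 cases and rose in none (median -0.35). That is 40% lower, against 7.06% of all genes. Acot3 was at -2.44, -0.22, -0.52, -0.25 and 0.49 in WT and at -5.00, -4.30, -3.86, -2.39 and -4.78 in sg/sg mice. WT replicate 1 and sg/sg replicate 4 overlapped, and the difference was -3.48 (SE 0.59, adjusted p = 0.00933), with -4.88 within slide 2. Acot2 fell by 1.76 (SE 0.28, slide 2 -1.96), Acot4 fell by 1.37 (SE 0.23, slide 2 -1.87) and Acot13 fell by 0.31 (SE 0.08, slide 2 -0.40). Acot2, Acot3 and Acot4 are close paralogs on chromosome 12, and a probe of one may take up RNA of another. Acyl-CoA synthetases and uptake proteins fell in 4 of 18 cases (22.2%, against 7.06% of all genes lower) and rose in none. The count of 4 called members became 1 on leaving out WT replicate 3, WT replicate 4 or sg/sg replicate 3 and 2 on leaving out WT replicate 2 or sg/sg replicate 5, and 2 with slide as a random block. The 4 were Acss3, which fell by 1.91 (SE 0.54, slide 2 -3.02), the fatty acid binding protein Fabp2, which fell by 0.88 (SE 0.21, slide 2 -1.19), Acsm3, which fell by 0.67 (SE 0.12, slide 2 -0.63), and Acsl5, which fell by 0.54 (SE 0.14, slide 2 -0.32).

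Glycogen genes were among the decreases of glucose metabolism. Of 35 genes of glycolysis, gluconeogenesis and glycogen 8 fell and 2 rose (28.6% called, against 16.3% of all genes, median -0.19). Ppp1r3g, which brings a phosphatase to glycogen, was at -2.19, 0.18, -0.20, -3.17 and -1.89 in WT and at -5.44, -4.35, -4.93, -5.08 and -4.61 in sg/sg mice. The genotypes did not overlap, 3 of 5 sg/sg arrays were well above background, and Ppp1r3g fell by 3.43 (SE 0.58, slide 2 -3.01). The liver glycogen synthase Gys2 was at 5.78, 6.19, 6.46, 5.83 and 6.01 in WT and at 5.55, 5.40, 5.35, 5.40 and 5.53 in sg/sg mice. It fell by 0.61 (SE 0.13, slide 2 -0.58), and again no arrays overlapped. The branching enzyme Gbe1 fell by 0.65 (slide 2 -0.61) and the primer protein Gyg by 0.55 (slide 2 -0.39). The count of 10 called members became 2 on leaving out WT replicate 4, 3 on leaving out sg/sg replicate 5, 4 on leaving out WT replicate 3, 5 on leaving out WT replicate 2 or sg/sg replicate 2 and 6 on leaving out sg/sg replicate 1 or sg/sg replicate 3, and 6 with slide as a random block. In insulin and glucagon signalling 2 of 22 rose and 1 fell (13.6%, against 16.3% of all genes called). The insulin receptor substrate Irs1 rose by 0.79 (SE 0.15, slide 2 0.83), and Trib3, an inhibitor of the kinase AKT, fell by 1.83 (SE 0.33, slide 2 -1.14). Igfbp2, which binds insulin-like growth factors, rose by 1.09 (SE 0.28, slide 2 0.62). It was the 1 gene called among 17 of the growth hormone axis (5.88%, below the 16.3% of all genes).

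**Figure D4:**
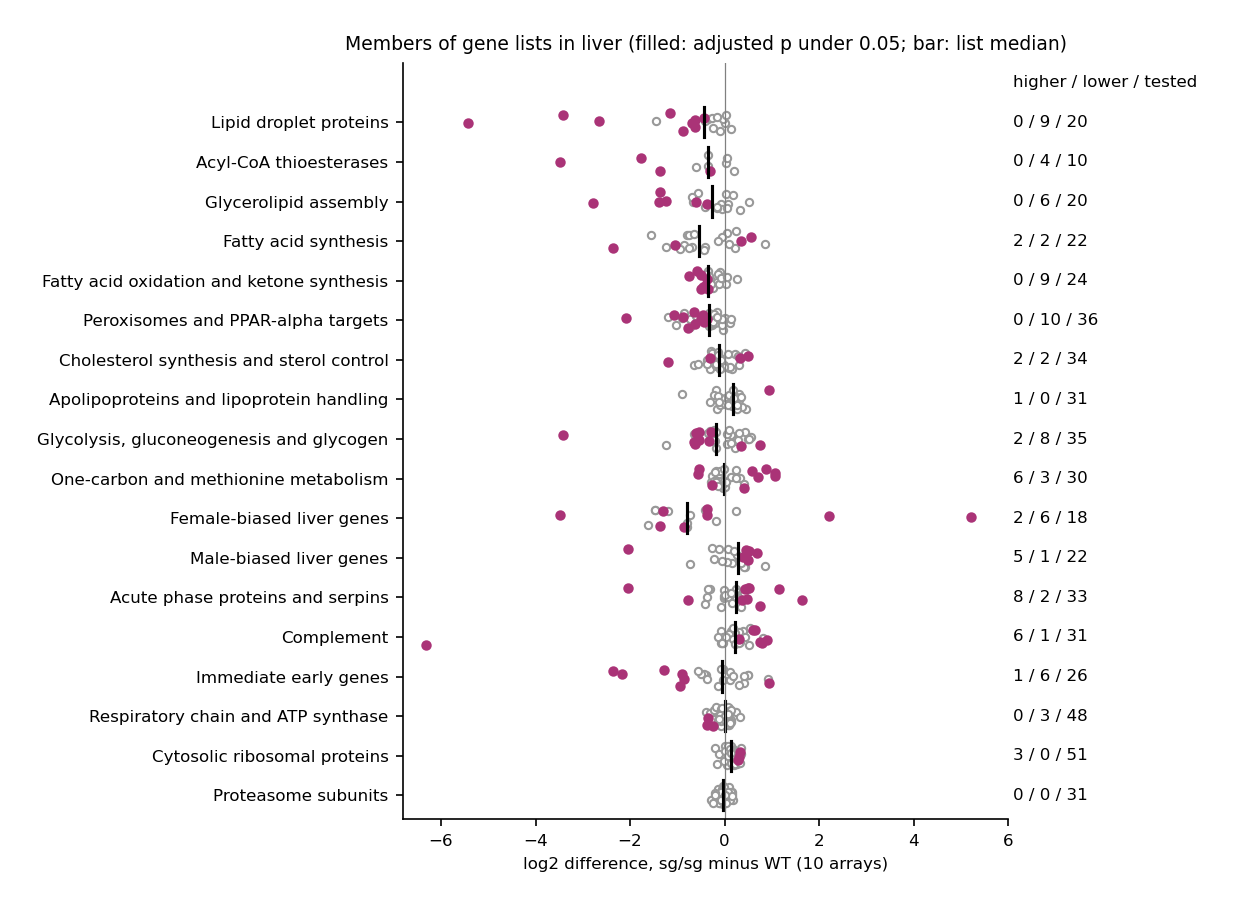
Log2 difference (sg/sg minus WT, 10 arrays) of each tested member of 18 gene lists, one point per gene. Filled points have an adjusted p under 0.05, bars are list medians and the numbers at the right count members higher, lower and tested; the droplet list shows 9 lower of 20 and the peroxisome list 10 lower of 36, with none higher in either.

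Cth and Cbs, the enzymes that turn homocysteine into cysteine, both rose. Cth, the later of them, was at 5.39, 4.91, 4.56, 5.06 and 5.41 in WT and at 5.73, 6.45, 6.16, 6.52 and 5.87 in sg/sg mice. The groups did not overlap, and Cth rose by 1.08 (SE 0.20, slide 2 0.70). Cbs, the earlier enzyme, named after its values were seen, rose by 0.71 (SE 0.15, slide 2 0.53). Nnmt, which methylates nicotinamide, was at 6.42, 6.08, 5.76, 6.04 and 6.33 in WT and at 6.75, 7.95, 6.72, 7.26 and 7.30 in sg/sg mice. All sg/sg mice were above all WT mice, and Nnmt rose by 1.07 (SE 0.23, slide 2 0.81). Of 30 genes of one-carbon and methionine metabolism 6 rose and 3 fell (30% called, against 16.3% of all genes), with a median of -0.02. Among them Gamt, which makes creatine, fell by 0.54 (SE 0.09, slide 2 -0.58).

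In amino acid breakdown and the urea cycle 5 of 48 genes rose and 3 fell (16.7%, against 16.3% of all genes called). Tat, the tyrosine aminotransferase, rose by 0.88 (SE 0.16, slide 2 0.70), and Nags, which makes the activator of the urea cycle, rose by 0.47 (SE 0.10, slide 2 0.29). The count of 8 called members became 4 on leaving out WT replicate 4. The asparagine synthetase Asns was at 0.30, -0.46, 2.82, 1.54 and 0.36 in WT and at 2.52, 3.69, 2.67, 2.53 and 2.59 in sg/sg mice. WT mice were spread and WT replicate 3 overlapped the sg/sg mice, and the difference was 1.89 (SE 0.54, adjusted p = 0.0401), with 2.60 within slide 2. The amino acid transport subunit Slc3a2 rose by 0.45 (SE 0.07, slide 2 0.36) and the aromatic amino acid carrier Slc16a10 rose by 1.08 (SE 0.19, slide 2 0.88). Among all 50 solute carriers of liver membranes tested 7 rose and 9 fell (32% called, against 16.3% of all genes). Those that fell included Slc17a8 by 2.11 (SE 0.59, slide 2 -2.20), Slc17a4 by 1.39 (SE 0.36, slide 2 -1.60) and the mitochondrial carrier Slc25a47 by 0.95 (SE 0.12, slide 2 -0.79). The count of 16 called members became 5 on leaving out WT replicate 4, 7 on leaving out WT replicate 3 and 10 on leaving out WT replicate 2 or sg/sg replicate 3.

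Conjugating and hydrolytic enzymes changed in both directions. Of 40 sulfotransferases, glucuronosyltransferases and glutathione transferases 3 rose and 5 fell (20% called, against 16.3% of all genes). Beside the rise of Sult1e1, its relative Sult1b1 fell by 1.10 (SE 0.10, slide 2 -0.98), and the glutathione transferase Gstt2 fell by 1.07 (SE 0.12, slide 2 -1.13). The count of 8 called members became 5 on leaving out WT replicate 4. The carboxylesterases Ces1g, Ces1e, Ces2b and Ces2c fell by 1.32 (slide 2 -1.56), 0.94 (slide 2 -0.77), 1.19 (slide 2 -1.27) and 1.21 (slide 2 -1.30), with the caution that such relatives share sequence. The xenobiotic receptor Nr1i2 fell by 0.54 (SE 0.10, slide 2 -0.73), and Abcc3, an exporter of bile acids and conjugates, fell by 1.34 (SE 0.21, slide 2 -1.04). Of 37 cytochromes P450 of families 1 to 3, 1 rose and 4 fell (13.5%, against 16.3% of all genes). The count of 5 called members became 0 on leaving out WT replicate 3, WT replicate 4 or sg/sg replicate 3, 1 on leaving out WT replicate 1 or sg/sg replicate 2, 2 on leaving out WT replicate 2 or sg/sg replicate 4 and 3 on leaving out WT replicate 5, sg/sg replicate 1 or sg/sg replicate 5, and 1 with slide as a random block.

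Sex-biased genes moved in both directions. Of 18 tested genes known as higher in female liver 2 rose, Sult1e1 and Cyp39a1, and 6 fell, among them Acot3, Acot4 and Rtn4, which fell by 1.30 (SE 0.22, slide 2 -1.29). The count of 8 called members became 5 on leaving out WT replicate 4. Of 22 male-biased genes 5 rose and 1 fell (27.3% called, against 16.3% of all genes). Their median was 0.28 over all arrays and 0.08 within slide 2. The urinary proteins Mup1 and Mup4 rose by 0.40 (slide 2 0.02) and 0.50 (slide 2 0.04). They are relatives, and a probe of one may read another. The count of 6 called members became 1 on leaving out WT replicate 3, WT replicate 4 or sg/sg replicate 4, 2 on leaving out sg/sg replicate 3 or sg/sg replicate 5 and 3 on leaving out WT replicate 1 or WT replicate 2, and 1 with slide as a random block. Serpina12, a serpin also known as vaspin, fell by 2.05 (SE 0.57, slide 2 -2.22). The oestrogen receptor Esr1 fell by 1.22 (SE 0.33, slide 2 -1.31).

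In the core clock loop 2 of 12 genes fell (16.7%, against 16.3% of all genes called), the repressor Cry2 by 0.81 (SE 0.14, slide 2 -0.83) and Ciart, another repressor, by 1.95 (SE 0.54, slide 2 -2.71). The count of 2 called members became 1 on leaving out WT replicate 2, WT replicate 3, WT replicate 4, WT replicate 5, sg/sg replicate 1, sg/sg replicate 3 or sg/sg replicate 5, and 1 with slide as a random block. Among output factors 2 of 13 fell and 1 rose (23.1%). The count of 3 called members became 1 on leaving out WT replicate 3 or WT replicate 4 and 5 on leaving out WT replicate 1 or sg/sg replicate 2. Dbp, a factor that drives rhythmic liver genes, was at 6.05, 6.29, 6.53, 6.51 and 6.61 in WT and at 4.29, 6.04, 3.39, 4.90 and 4.87 in sg/sg mice. WT mice lay close together, whereas sg/sg mice were spread widely, with replicate 2 just under the lowest WT mouse, and Dbp fell by 1.70 (SE 0.39, slide 2 -2.04). Bhlhe41, a clock repressor, had no sg/sg array well above background, which puts it at least 1.78-fold lower. The melatonin receptor Mtnr1a fell by 3.0 (SE 0.50, slide 2 -2.98). Rgs16, which ends G-protein signals, was at 3.66, 5.42, 4.35, 3.14 and 3.84 in WT and at -0.86, -2.56, 0.40, 2.43 and 1.95 in sg/sg mice. No arrays overlapped, and Rgs16 fell by 3.81 (SE 0.87, slide 2 -4.84), though its adjusted p was 0.0504 without WT replicate 3.

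**Figure D5:**
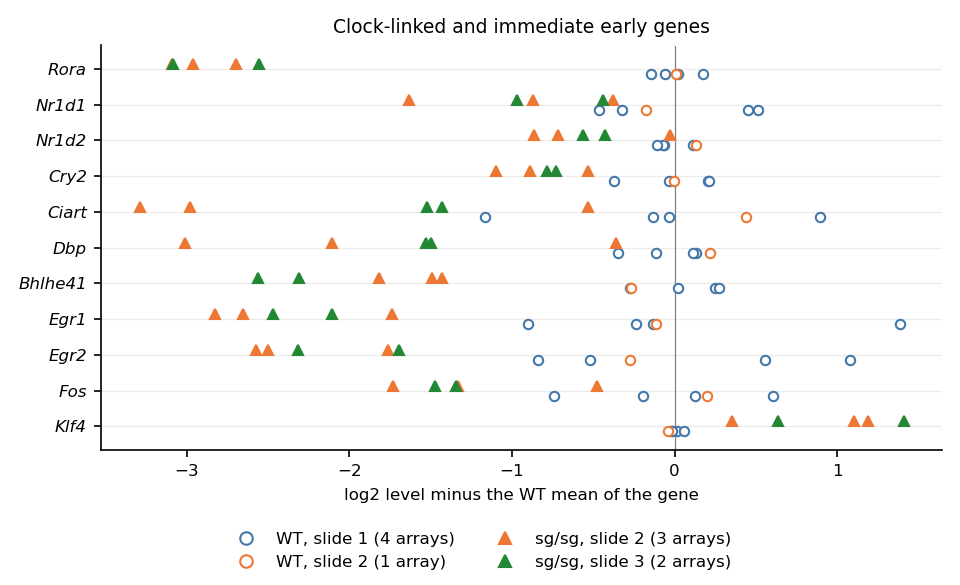
Log2 level minus the WT mean for Rora, REV-ERB and clock genes and for immediate early genes, one point per array, with WT as open circles, sg/sg as triangles and colours for slides. Rora separates the genotypes with little spread (difference -2.88, SE 0.12), while Dbp is spread widely among sg/sg arrays (difference -1.70, SE 0.39).

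Immediate early genes, which respond within minutes to growth factors and stress, fell in 6 of 26 cases and rose in 1. That is 26.9% called, against 16.3% of all genes. Egr1 was at 2.08, 0.45, 0.55, -0.22 and 0.57 in WT and at -1.05, -1.97, -2.14, -1.42 and -1.78 in sg/sg mice. No arrays overlapped, and Egr1 fell by 2.36 (SE 0.37, slide 2 -2.29). Its relative Egr2 fell by 2.17 (SE 0.35, slide 2 -2.01) (2 sg/sg arrays of 5 were well above background), Fos fell by 1.27 (SE 0.28, slide 2 -1.38) and Klf4 rose by 0.94 (SE 0.18, slide 2 0.92). The list median was -0.06. The count of 7 called members became 4 on leaving out WT replicate 3, sg/sg replicate 1, sg/sg replicate 3, sg/sg replicate 4 or sg/sg replicate 5, and 4 with slide as a random block.

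Cfd, the protease adipsin of the alternative complement pathway, was at -0.68, 3.20, 2.99, 1.35 and 2.20 in WT and at -5.81, -3.96, -4.76, -5.85 and -2.18 in sg/sg mice (probe chr10:79672573-79672632, mm7). No arrays overlapped, although 3 of 5 sg/sg arrays alone were well above background. The difference was -6.32 (SE 0.86, adjusted p = 0.00451), or 80.1-fold, and -7.04 within slide 2. Fat cells are the best known source of Cfd. Of 13 adipocyte markers on the array 8 were tested, of which Cfd and Cidec fell and Lpl rose (37.5% called, against 16.3% of all genes). Their summed level was 266 to 370 in WT and 165 to 336 in sg/sg liver. Car3, at a mean level of 8.16 in WT and 7.91 in sg/sg liver, makes up most of that sum. The mean log2 level of the 8, Cfd and Cidec among them, was 0.93 to 2.73 in WT and 0.13 to 1.06 in sg/sg liver. The defining markers Lep, Plin1 and Adrb3 were not well above background on any liver array, Adipoq was on 1 sg/sg array, and Retn was on 1 array of each genotype.

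Of 31 complement genes 6 rose, 1, Cfd, fell and 24 were not called (22.6% called, against 16.3% of all genes). C1qa, a chain of C1q that macrophages make, was at 3.04, 2.42, 2.62, 2.07 and 2.73 in WT and at 3.45, 3.29, 3.24, 3.25 and 3.67 in sg/sg mice. The genotypes did not overlap, and C1qa rose by 0.80 (SE 0.17, slide 2 0.60). The count of 7 called members became 2 on leaving out WT replicate 4 or sg/sg replicate 5 and 3 on leaving out WT replicate 2, WT replicate 3 or sg/sg replicate 1. Of 25 macrophage markers 6 rose, including Cd68 by 0.68 (SE 0.16, slide 2 0.53), and 1 fell. The other 18 were not called, among them Adgre1, Clec4f, Timd4, Vsig4, Marco and Cd5l. That is 28% called, against 16.3% of all genes, with a median of 0.46 over all arrays and 0.42 within slide 2. The summed level of the markers was 172 to 288 in WT and 242 to 368 in sg/sg liver. The count of 7 called members became 1 on leaving out WT replicate 3 or sg/sg replicate 5, 2 on leaving out WT replicate 4 and 3 on leaving out WT replicate 2 or sg/sg replicate 1. C1q chains, C1qa among them, were part of the rises counted in both lists. The part of the macrophage markers in the rise of complement genes was not tested. Of 22 endothelial markers 4 rose and none fell (18.2% called, against 16.3% of all genes). Among them the junction protein Cldn5 rose by 0.60 (SE 0.11, slide 2 0.56). The count of 4 called members became 7 on leaving out WT replicate 1. Of 46 cytokine genes 5 were called (10.9%, below the 16.3% of all genes), of which 4 rose, including Il1a by 0.95 (SE 0.13, slide 2 0.59) and Il1b by 0.72 (SE 0.18, slide 2 0.62), and 1 fell. The count of 5 called members became 3 on leaving out WT replicate 3, WT replicate 4 or sg/sg replicate 5. Interferon-induced genes fell in 2 of 35 cases (5.71%, below the 7.06% of all genes lower) and rose in none, Ubd by 2.09 (SE 0.51, slide 2 -2.14) and Gbp6 by 1.13 (SE 0.22, slide 2 -1.19). The count of 2 called members became 1 on leaving out WT replicate 3 or WT replicate 4.

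Acute phase proteins and serpins rose in 8 of 33 cases and fell in 2 (30.3% called, against 16.3% of all genes). Their median was 0.25 over all arrays and 0.05 within slide 2. Fgl1, a protein secreted by hepatocytes, rose by 1.15 (SE 0.26, slide 2 1.15), and the thyroid hormone carrier Serpina7 rose by 1.64 (SE 0.47, slide 2 1.65). The count of 10 called members became 2 on leaving out WT replicate 3 or WT replicate 4, 3 on leaving out sg/sg replicate 3, 4 on leaving out WT replicate 1, sg/sg replicate 4 or sg/sg replicate 5 and 5 on leaving out WT replicate 2 or sg/sg replicate 2, and 3 with slide as a random block. Some broad groups held few called genes. Of 51 ribosomal proteins 3 rose, 3 of 48 genes of the respiratory chain and ATP synthase fell, and 1 of 31 apolipoproteins and lipoprotein genes rose, all shares below 16.3%. For ribosomal proteins the count of 3 called members became 0 on leaving out WT replicate 1, WT replicate 2, WT replicate 3, WT replicate 4, sg/sg replicate 2 or sg/sg replicate 5, 1 on leaving out sg/sg replicate 3 and 6 on leaving out WT replicate 5, and 0 with slide as a random block. For the respiratory chain the count of 3 called members became 1 on leaving out WT replicate 1, WT replicate 2, WT replicate 3, WT replicate 4, sg/sg replicate 1 or sg/sg replicate 3, and 1 with slide as a random block.

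Families of gene copies were also among the changes. Zfp979, a zinc finger gene (probe chr4:146601807-146601866, mm7), was at -0.01, 0.44, -0.08, -1.03 and -1.29 in WT and at -4.32, -5.43, -4.93, -5.03 and -4.87 in sg/sg mice. No arrays overlapped, 2 of 5 sg/sg arrays were well above background, and Zfp979 fell by 4.52 (SE 0.33, slide 2 -3.60). Zfp982 on the same chromosome (probe chr4:146501945-146502004) fell by 2.54 (SE 0.23, slide 2 -2.12). The acetyltransferases Nat8 and Nat8f5, both on chromosome 6, fell by 1.78 (SE 0.16, slide 2 -1.80) and 2.20 (SE 0.27, slide 2 -2.74). On chromosome 14 the ribonucleases Rnase4, Ang and Ang4 rose by 1.16 (SE 0.22, slide 2 0.95), 1.42 (SE 0.28, slide 2 1.04) and 1.48 (SE 0.27, slide 2 1.11). Zfp982, Nat8, Nat8f5, Ang and Ang4 were named after their values were seen, and a probe of one copy may read another.

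The remaining large decreases had varied roles. Osbpl3, a lipid-binding protein of the oxysterol-binding family, was at -1.24, 0.66, 0.27, -0.82 and -0.81 in WT and at -4.38, -3.83, -4.41, -4.72 and -4.84 in sg/sg mice. No arrays overlapped, and Osbpl3 fell by 4.05 (SE 0.36, slide 2 -3.40). The adaptor protein Stap1 fell by 3.45 (SE 0.39, slide 2 -3.07), but a single sg/sg array had it well above background. Npal1 and Obp2a were not well above background on any sg/sg array and were at least 4.62-fold and at least 3.67-fold lower. Chosen after their values were seen, the galectin Lgals1 fell by 2.04 (SE 0.42, slide 2 -1.96), the calcium-binding protein family member S100a10 fell by 2.19 (SE 0.38, slide 2 -2.17), the annexin Anxa8 fell by 2.15 (SE 0.32, slide 2 -2.06) and the water channel Aqp8 fell by 1.49 (SE 0.45, slide 2 -1.28).

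Not all called genes of at least 2-fold kept their sign within slide 2: of the 139 higher ones 120 did. The 6 genes below, all with a symbol, had the differences within slide 2 that ran furthest against those over all arrays. The probe that the array names Tnfsg5 was at -1.14, -1.34, -1.19, -1.08 and 1.5 in WT and at 1.03, 1.19, 1.05, 3.46 and 3.06 in sg/sg mice. WT replicate 5 stood with sg/sg replicates 1 to 3 of its slide, and the sg/sg mice of slide 3 were higher still. The difference was 2.61 (SE 0.67, adjusted p = 0.028) over all arrays and -0.41 within slide 2. Phgdh, the first enzyme of serine synthesis, was at -3.18, -3.57, -2.96, -3.66 and -0.95 in WT and at -1.15, -1.27, -1.45, 0.09 and -0.02 in sg/sg mice. It too was higher in WT replicate 5 than in the other WT mice, with 2.11 (SE 0.52, adjusted p = 0.0261) over all arrays and -0.34 within slide 2. Another probe of Phgdh differed by 0.25 (SE 0.13, adjusted p = 0.20). Accsl, Adgrg5, Rhbdl3 and Psd differed by 2.93, 1.43, 1.35 and 1.0 over all arrays and by -0.27, -0.37, -0.39 and -0.14 within slide 2.

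The liver changes were also set against white adipose tissue, in which the same genotypes were compared. For 16 of the 24 genes described first the difference between tissues passed limma's interaction test, as it did for 17.4% of all 22564 genes of that fit. Nothing is read from these shares, since the 24 were chosen for large differences on the same liver arrays. The liver change minus the adipose change was -6.74 (SE 0.95, adjusted p = 0.000153) for Cidea, whose adipose change was 1.31. It was -7.17 (SE 0.96, adjusted p = 0.000103) for Cfd and 4.99 (SE 0.56, adjusted p = 2.8e-05) for Sult1e1, with adipose changes of 0.85 and 0.23. Dhrs9, higher in sg/sg liver, had an adipose change of -2.12 and an interaction of 3.81 (SE 0.65, adjusted p = 0.00064). For Rora it was -0.16 (SE 0.20, adjusted p = 0.625), which did not pass.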

How the data were processed

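Cy3-labelled total RNA was measured on 1-colour Agilent arrays, one per mouse and tissue per the series' design text. Per the file headers, the authors' deposited spot intensity had its background subtracted with spatial detrending, was corrected by multiplicative detrending, and low values were replaced by surrogates. The submitters' processing notes name Agilent Feature Extraction 9.5. The deposited value table held the same intensities.

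Levels are log2 of that intensity minus the array's 75th percentile over non-control spots. Of 41174 probes, 24675 were kept, with a signal well above background in 4 or more of the 10 liver arrays and at most 2 outlier spots left out as missing, and a gene was read from its brightest kept probe. RefSeq accessions named 22951 probes, the array's own names 11758, and 6465 had none. In 17335 genes 64 values were missing, and the fit used the other arrays there. Genotypes were compared with limma 3.58.1 in R 4.3.3 (lmFit and eBayes, two-sided, Benjamini-Hochberg over all genes), and tables were made with pandas 2.3.3. The interaction with tissue was fitted on all 20 arrays. p-values cover the spread between these mice, and the number of arrays limits their precision.

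The share of detected probes was 57.1% to 63.0% in WT and 57.9% to 59.3% in sg/sg liver. Tested on simulated data for the liver comparison (17335 genes), the fit recovered 76% of 100 genes changed by 1 log2 unit. It recovered 93% of 100 changed by 2, and called 15 unchanged genes. The simulated arrays were independent and held no slide effect, so these figures do not carry over to slides that divide the genotypes unevenly. Members and the 54 gene lists were chosen with earlier results of these data known. Named genes number 152 in all. They are the Rora probes, the 12 increases and 12 decreases described in the text, and the 6 genes that ran furthest against their slide. From each list came the up to 3 called members with the smallest p, and every member of a list with 5 or fewer tested. A further 47 were named after their values were seen, in the text Acaa1b, Acot13, Acss3, Adgrb2, Ang, Ang4, Anxa8, Aqp8, Bdh1, Cbs, Ces1g, Ces2b, Ces2c, Cpt1a, Esr1, Fitm1, Fitm2, Fos, Gbe1, Gyg, Hadh, Il1b, Lgals1, Lipa, Lpin1, Mgll, Mup1, Nat8, Nat8f5, Parp16, Rasl12, Rtn4, S100a10, Serpina12, Serpina7, Slc17a4, Slc17a8, Vnn1 and Zfp982. Replicate numbers are not known to pair the mice, and the main fit did not pair them. Alternatives covered scaling, background correction, dim filter, probe choice, slide, replicate number, array weights, the arrays in the fit and each array left out. Some genes are not reported here. Each kept probe without a name counted as a gene of its own among the 17335. Other probes of a gene were left out of the counts.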

Additional observations from a re-analysis of the deposited data

Results flagged for a closer look

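In each of 25 cases, 1 of the 5 liver arrays of a genotype lay far from the other 4 on the log2 level scale, by more than a test for outlying values allows at its 95% level. Chance alone marks about 1 in 20 groups, and many genes were looked at. WT replicate 1 stood apart for Acot4 (0.67 against 1.72 to 2.03), Acot13 (6.72 against 6.89 to 6.92) and Acaa1b (7.19 against 7.79 to 8.02). WT replicate 2 stood apart for Mogat1 (2.29 against -0.66 to 0.16), Ubd (1.28 against -0.66 to -0.19) and Slc17a4 (2.93 against 1.62 to 2.0). WT replicate 3 stood apart for Ppp1r42 (-6.44 against -5.40 to -5.03). WT replicate 4 stood apart for G6pdx (-0.84 against -0.47 to -0.41). WT replicate 5 stood apart for Tnfsg5 (1.5 against -1.34 to -1.08), Rhbdl3 (0.23 against -1.49 to -1.20), Phgdh (-0.95 against -3.66 to -2.96), Accsl (-4.64 against -8.06 to -7.51), Ctrl (-3.25 against -4.07 to -3.87) and Adgrb2 (-2.89 against -5.72 to -5.18). sg/sg replicate 2 stood apart for Cela2a (-0.94 against -2.62 to -2.33), Ctrc (0.49 against -1.13 to -0.71), Ehhadh (3.31 against 3.88 to 4.0), Asns (3.69 against 2.52 to 2.67), S100a10 (0.88 against 2.43 to 3.02), Aqp8 (3.03 against 5.04 to 5.49) and Esr1 (-1.01 against -2.25 to -1.99). sg/sg replicate 3 stood apart for Slc25a47 (6.63 against 6.32 to 6.38). sg/sg replicate 5 stood apart for Tgfb1 (-1.33 against -1.59 to -1.52), Hbb-bt (7.05 against 6.12 to 6.26) and Slc4a1 (-1.55 against -3.38 to -3.07). 

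Among the 24 genes chosen for large liver differences, the change with genotype differed between liver and white adipose tissue for 16, by limma's interaction term with an adjusted p under 0.05, as it did for 3918 of all 22564 genes tested. The choice on the same liver arrays favours such differences. The liver change exceeded the adipose change by 4.99 for Sult1e1 (adjusted p = 2.8e-05), 3.18 for Tff3 (adjusted p = 0.0226), 3.10 for Ppp1r42 (adjusted p = 0.0304), 1.95 for Cyp39a1 (adjusted p = 0.000868), 2.20 for Fam222a (adjusted p = 0.00129) and 3.81 for Dhrs9 (adjusted p = 0.00064). The liver change minus the adipose change was -7.17 for Cfd (adjusted p = 0.000103), -2.96 for Rgs16 (adjusted p = 0.0394), -4.24 for Zfp979 (adjusted p = 4.99e-06), -6.74 for Cidea (adjusted p = 0.000153), -2.86 for Osbpl3 (adjusted p = 0.000375), -3.68 for Cidec (adjusted p = 0.00259), -2.54 for Npal1 (adjusted p = 0.00304), -3.68 for Ppp1r3g (adjusted p = 0.0029), -3.75 for Mtnr1a (adjusted p = 0.00169) and -3.59 for Obp2a (adjusted p = 0.00406). In adipose tissue Mtnr1a was well above background on no array, Obp2a on 1 sg/sg array and Tff3 on 1 WT and 2 sg/sg arrays, so for these the adipose side is background signal and the size of the tissue difference is not a measured one. These values are on the log2 scale, with 5 arrays per genotype and tissue.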

How the results depend on the processing

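Against 2825 called genes, the count was 982 with no filter on dim probes (509 higher, 473 lower, 894 of them among the 2825), 1745 with slide as a random block (945 higher, 800 lower, all 1745 among them) and 1407 without the mixed slide (808 higher, 599 lower, 937 among them, and 540 instead of 336 at least 2-fold). With slide as a fixed block 2 were called, 0 higher and 2 lower, both at least 2-fold. Within the mixed slide limma called 0 genes, with 1356 at an unadjusted p under 0.05. Median scaling gave 675 higher, with the median over all genes at -0.06 in place of 0.05, and normexp gave 186 at least 2-fold genes. The share near Rora was 12.6% in the 20 Mb window. Leaving out 1 array gave 934 to 3132 called genes, 475 to 1813 higher, 459 to 1319 lower and 185 to 435 of at least 2-fold, the last lowest without WT replicate 4, with 210 without WT replicate 3. The interaction count was 12 to 19 over its alternatives, against 16. Fewer arrays or genes enter several of these fits, and otherwise the cause was not tested.

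Replicate numbers are not known to pair the mice. Deviations of same-numbered mice correlated at 0.18, -0.06, 0.03, -0.09 and -0.06. Those of mice with different numbers correlated at -0.13 to 0.22, and these values do not settle whether mice were paired. With the replicate block 1430 genes were called (887 higher, 543 lower), of which 1270 were shared.

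Directions turned as follows, on the log2 scale. With slide as a fixed block and within the mixed slide alike, Tnfsg5 was at -0.41, Rhbdl3 at -0.39, Adgrg5 at -0.37, Phgdh at -0.34, Accsl at -0.27, Psd at -0.14, Csf3r at 0.38, Lcn2 at -0.44 and Alas2 at -0.14. Lcn2 was at -0.039 with quantile and -0.0852 with median scaling. With 1 array left out it ran from -0.282 to 0.578, below 0 without WT replicates 1 (-0.17), 3 (-0.0891) and 4 (-0.0615) and sg/sg replicates 2 (-0.2821), 4 (-0.0571) and 5 (-0.282). Alas2 was at -0.0017 with median scaling. Under normexp Cr2 was at 0.0308 and Csf3r at 0.0080. Csf3r was at 0.0932 with array weights and from -0.2154 to 0.28 with 1 array left out, above 0 without WT replicate 5 (0.0078), sg/sg replicate 4 (0.2789) and sg/sg replicate 5 (0.10). Adgrb2 ran from -0.51 to 0.20, the latter without WT replicate 5. The liver minus adipose change was 0.12 for Rora with quantile scaling, -0.0661 for Cela2a, -0.0818 for Acmsd and -0.13 for Ihh under normexp. For Scn3b it ran from -0.23 to 0.0815 with 1 array left out, above 0 without WT replicate 1 (0.0815) and sg/sg replicates 1 (0.0202), 4 (0.0199) and 5 (0.0551). Of 185 called named genes, 137 passed with slide as a random block and 65 without the mixed slide.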

Other observations

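Genes of stress responses were called about as often as genes in general or less often, against 16.3% of all genes. In the list of endoplasmic reticulum stress genes 1 of 30 rose and 4 fell (16.7%), among targets of the oxidative stress factor NRF2 2 of 28 rose and 2 fell (14.3%), and among heat shock proteins 1 of 22 rose. The count of 5 endoplasmic reticulum stress genes was 1 to 3 with any 1 array left out. The count of 4 NRF2 targets was 0 on leaving out WT replicate 4, 1 on leaving out WT replicate 3, sg/sg replicate 2 or sg/sg replicate 4, and 2 on leaving out WT replicate 2 or sg/sg replicate 5. In cholesterol synthesis and sterol control 2 of 34 genes rose and 2 fell (11.8%). That count of 4 was 0 on leaving out WT replicate 3 or 4, 1 on leaving out WT replicate 2, sg/sg replicate 3 or sg/sg replicate 5, and 2 on leaving out sg/sg replicate 1, 2 or 4. Of 33 genes of DNA replication and mitosis 5 fell and none rose (15.2%), with the cyclin Ccne2 at -1.19 (SE 0.23, limma adjusted p = 0.0126). Without WT replicate 3, WT replicate 4 or sg/sg replicates 3, 4 or 5 that count was 2, and without WT replicate 2 it was 3.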
